A study of Sus scrofa with 23 samples.

Results

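FOLR1 (ENSSSCG00000022236) carries the symbol of folate receptor alpha by the study's naming. It was followed as a single gene, 1 of 25322 gene rows, in RNA-seq counts of backfat from 23 fattening pigs. It was chosen on measured values, because it was among the genes called different between groups II and I. The paper had reported it as higher with cDDGS and listed it with MRC1 as anti-inflammatory markers known from mice. The control diet of group I (-cDDGS+rapeseed oil) was fed to 7 of these pigs, 4 female and 3 male. The 6 pigs on +cDDGS+rapeseed oil formed group II, 3 of each sex. The 5 pigs on +cDDGS+beef tallow (group III) were 2 females and 3 males, and the 5 on +cDDGS+coconut oil (group IV) were 3 females and 2 males. By the paper's methods the females were gilts and the males barrows, that is, castrated. The feed ingredient cDDGS, distillers grains of corn dried together with the solubles, is what ethanol production leaves over. Group I alone had no cDDGS, and groups II, III and IV differed in the added fat. All pigs were crossbred, with Polish Landrace and White Large Polish on the dam's side and Duroc and Pietrain on the boar's, and all RNA was partly degraded according to the study's methods. The library labels start with "a" in groups I and IV and with "z" in groups II and III, and what the letters mean is not given. Diet and letter therefore cannot be told apart between groups I and II, whereas every comparison of pigs within a group was made inside 1 letter.

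Folate receptors are proteins of the cell surface that bind folates and bring them into the cell by endocytosis. FOLR1 is best known from epithelia, such as those of the kidney and the choroid plexus, and FOLR2 (folate receptor beta) from cells of the myeloid line, including macrophages that reside in tissues. Adipose tissue holds such macrophages between its fat cells. MRC1 (the mannose receptor, CD206) and VSIG4 (a complement receptor) are in common use as their markers.

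The name of the gene came from the study's supplementary gene list, since the table of current gene names used here did not hold this identifier. That table gives the name FOLR1 to another identifier, which the count files do not hold. RefSeq places 2 genes named FOLR1, 1 named FOLR2 and 1 pseudogene next to each other on chromosome 9. Which of the 2 genes named FOLR1 this identifier stands for was not settled. Reads that map to several places were not counted, so the level of FOLR1 is uncertain to the extent that it shares sequence with these neighbours. Reads of fewer cells of a type and of less RNA per cell cannot be told apart in these bulk samples.

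Each pig had between 2437172 and 7979426 reads on genes (median 4717511), and FOLR1 received from 72 to 485 of them. Levels are given as CPM, counts scaled to the same library size after normalization by the TMM method. The adipocyte genes PLIN1, PPARG, CIDEC and LIPE passed the filter on low counts, and the adipocyte genes summed to between 1683 and 2781 CPM in each pig. The 4 matched epithelial genes (EPCAM, CDH1, KRT8 and KRT18) summed to at most 8.07 CPM in any pig, and none of them passed the filter.

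FOLR1 was highest in group II and lowest in group I. Group I averaged 39.9 ± 8.92 CPM (SD, n = 7) and group II 76.0 ± 10.6 CPM (SD, n = 6). Group III averaged 56.7 ± 16.9 CPM (SD, n = 5) and group IV 50.6 ± 19.0 CPM (SD, n = 5). In group I the lowest pig was at 23.9, the median at 42.5 and the highest at 49.2 CPM. In group II the lowest, median and highest values were 61.7, 75.4 and 90.7 CPM. All 6 pigs of group II were above all 7 pigs of group I. FOLR1 was chosen for this difference, so it is given with no test. Of the 10323 genes tested between these groups, 26 (0.252%) had every pig of group II above every pig of group I.

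The pigs of group III were at 46.7 (pig 41), 71.0 (pig 43), 63.8 (pig 45), 69.9 (pig 46) and 31.9 CPM (pig 48). Of these 5, 3 were above every pig of group I, and 2 were below every pig of group II. The pigs of group IV were at 56.1 (pig 49), 57.9 (pig 52), 72.9 (pig 53), 21.8 (pig 54) and 44.5 CPM (pig 55). Of these 5, 3 were above every pig of group I, 4 were below every pig of group II, and pig 54 was below every pig of group I. In the order of levels from group II to III, IV and I, each neighbouring pair of groups overlapped. The coefficient of variation was 29.9% in group III and 37.6% in group IV, against 22.3% in group I and 13.9% in group II. Single pigs set these values, which were 17.8% in group III without pig 48, 20.2% in group IV without pig 54 and 14.0% in group I without pig 8.

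**Figure D1:**
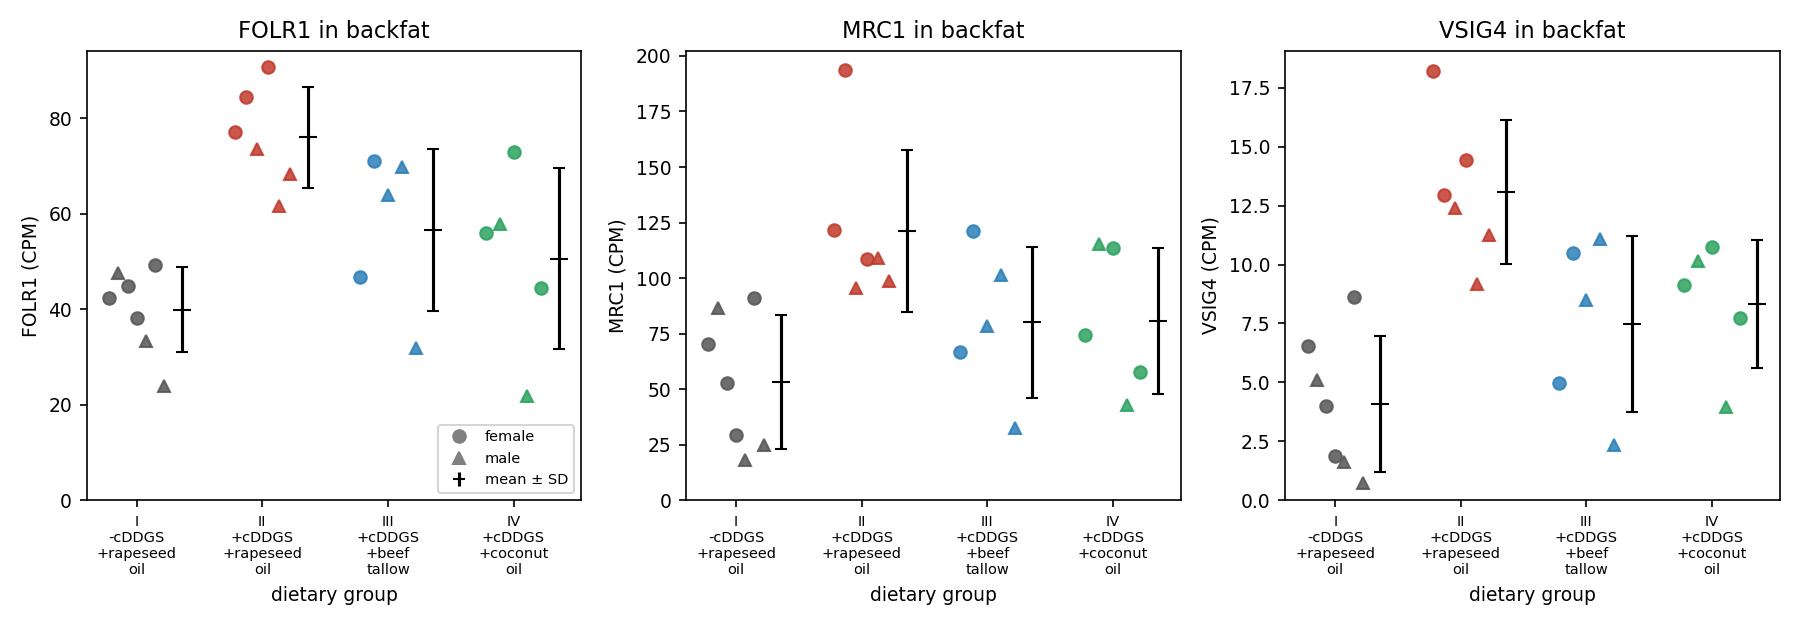
Levels of FOLR1, MRC1 and VSIG4 (CPM, linear axes from 0) in backfat of each pig by dietary group, with circles for females, triangles for males and the mean ± SD at the right of each group (n = 7, 6, 5 and 5). For all 3 genes the 6 pigs of group II lie above the 7 pigs of group I, while groups III and IV spread between and across them.

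The log2 fold change of FOLR1 fitted with edgeR was 0.92 (SE 0.15) for group II against group I. With an adjusted p under 0.05 and a fold change above 1.3, edgeR called 3 of 10323 genes (0.0291%) in this comparison, 13% had an unadjusted p under 0.05, and DESeq2 called 96 genes. The libraries of the groups differed as well. Of the reads placed at 1 site, 62.5% ± 5.81 lay outside genes in group II (SD, n = 6) and 56.8% ± 2.53 in group I (SD, n = 7). The median of reads on genes was 3445234 against 4898483. With the share of reads outside genes as a covariate the log2 fold change of FOLR1 was 0.85. For group III against group I the log2 fold change of FOLR1 was 0.50 (SE 0.20), where 0 of 10423 genes (0%) were called by edgeR, 7.95% had an unadjusted p under 0.05, and DESeq2 called 13 genes. For group IV against group I it was 0.35 (SE 0.24), where 0 of 10388 genes (0%) were called by edgeR, 14.2% had an unadjusted p under 0.05, and DESeq2 called 154 genes. All 3 comparisons share the 7 pigs of group I, on which the gene was chosen, and carry no test for FOLR1. The value for group IV depended on single pigs, at 0.17 without pig 53 and 0.54 without pig 54, and on the share of reads outside genes, at 0.77 with that share as a covariate.

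Groups III and IV took no part in the choice of the gene. They differed in the fat of the diet and in the letter of the library labels, which cannot be told apart here. FOLR1 was not shown to differ between them. The log2 fold change of group IV against group III was -0.16 (SE 0.28; adjusted p = 0.997, edgeR), and the exact two-sided permutation test of the 10 pigs gave p = 0.579, where the smallest p it allows is 0.00794. The difference turned positive, to 0.03, without pig 54, and to 0.07 with the share of reads outside genes as a covariate. edgeR called 0 of 10230 genes (0%) here, 4.11% had an unadjusted p under 0.05, and DESeq2 called 0.

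The mean of FOLR1 was lower in males than in females in each of the 4 groups. The males were barrows, so sex and castration cannot be told apart here. In group II the females were at 77.2, 84.5 and 90.7 CPM and the males at 61.7, 68.4 and 73.5 CPM. Among so few pigs this order was not tested, and how many of all genes share it was not counted. In group I the females ranged from 38.1 to 49.2 CPM and the males from 23.9 to 47.6 CPM, and in groups III and IV the sexes overlapped too. The lowest pig of each group was a male. With diet as covariate, the log2 fold change of males against females was -0.31 (SE 0.15), which did not pass adjustment over all genes (adjusted p = 0.302, edgeR). Permuting sex within diet groups for this gene alone gave a log2 difference of -0.37 and a two-sided permutation p of 0.0441. Without pig 54 the log2 fold change was -0.20. edgeR called 92 of 11235 genes (0.819%) between the sexes, and 17.3% had an unadjusted p under 0.05.

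Of the 14 macrophage genes tested between the sexes, 14 had a negative log2 fold change in males, with a median of -0.51 against -0.02 over all genes tested. Over all genes tested, 46.2% had a positive log2 fold change, and edgeR called 92 of 11235 (0.819%) in either direction. Of the 14 macrophage genes, 2 were called lower. They were LYVE1, a hyaluronan receptor, at -0.98 (SE 0.23; adjusted p = 0.0405, edgeR) and CD209, a lectin, at -1.36 (SE 0.32; adjusted p = 0.0380, edgeR). With limma-voom LYVE1 was still called (adjusted p = 0.0379), CD209 was not (adjusted p = 0.0558), and MS4A7 turned positive, at 0.18. MRC1 was at -0.37 (SE 0.25) and VSIG4 at -0.48 (SE 0.27), and neither passed (adjusted p = 0.446 and 0.369, edgeR). The part of the macrophage genes in the difference of FOLR1 between the sexes was not tested.

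MRC1 and VSIG4 took the same order of extremes as FOLR1 across the diets, with group II highest and group I lowest. Group I averaged 53.3 ± 30.0 CPM of MRC1 (SD, n = 7), group II 121 ± 36.6 (SD, n = 6), group III 80.0 ± 33.9 (SD, n = 5) and group IV 80.7 ± 32.7 (SD, n = 5). For VSIG4 these means were 4.06 ± 2.88, 13.1 ± 3.07, 7.48 ± 3.74 and 8.34 ± 2.71 CPM, on 3 to 79 reads per pig. For both genes all 6 pigs of group II were above all 7 of group I, as for 26 of the 10323 genes tested. The paper had already reported both as higher with cDDGS, so this is a description. MRC1 of pig 19 stood apart in group II at 194 CPM, and without it the mean of MRC1 in that group was 107 ± 10.3 CPM (n = 5) and that of FOLR1 74.3 ± 10.9 CPM.

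The macrophage list had 20 genes, of which 16 matched an identifier and 13 were tested between groups II and I. Of these, 11 had a positive log2 fold change, and the median log2 fold change was 1.04 against 0.00285 over all genes tested. At an unadjusted p under 0.05, 9 of the 13 were higher and 1 lower, and 0 were called by edgeR, against 3 of 10323 over all genes. Over all genes tested, 6.54% were higher and 6.41% lower at that limit. DESeq2, which gave an adjusted p for 10 genes of the list, called 4 higher among its 96 calls. The list holds MRC1, VSIG4 and F13A1, which the paper had already reported as changed by cDDGS from these same pigs. It also holds C1QA and C1QC, and the paper had reported C1Q as changed in the same way. The values for groups II and I are therefore a description and no independent result. The summed level of the 16 genes lay between 93.5 and 348 CPM for the pigs of group I and between 295 and 630 CPM for those of group II. It lay between 149 and 439 CPM for group III and between 188 and 371 CPM for group IV. The lower gene was MS4A7, a membrane protein of the MS4A family, at -1.46 (SE 0.39; unadjusted p = 0.00178, adjusted p = 0.212, edgeR). Over the 13 genes tested in each, the median log2 fold change was 0.21 for group III and 0.28 for group IV against group I. The part of these genes in the diet differences of FOLR1 was not tested.

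Because the group means of all 3 genes differ between the groups on which they were chosen, the relation between pigs was measured on deviations of log2(CPM + 0.5) from the mean of each pig's own dietary group. Pigs with more MRC1 or VSIG4 than the others of their group had more FOLR1. With MRC1 the correlation over 23 pigs was r = 0.785 and Spearman's rho = 0.815, and FOLR1 and MRC1 lay on the same side of their group means in 21 of 23 pigs. With VSIG4 it was r = 0.839 and rho = 0.853, on the same side in 23 of 23 pigs. Permutation of pigs within groups gave p = 1e-05 for both r, the smallest that 100000 resamples can give, and an adjusted p of 4e-05 over 8 relations. For rho the permutation p was 2e-05 with MRC1 and 1e-05 with VSIG4, each with an adjusted p of 8e-05. Without pigs 6 and 8, the 2 farthest from the median of the macrophage gene, r was 0.787 with MRC1 and 0.812 with VSIG4. Centred on sex as well as on diet group, r was 0.746 with MRC1 (permutation p = 0.00022) and 0.801 with VSIG4 (permutation p = 1e-05). Without centring, r was 0.859 and 0.880, given as a description because that value includes the group differences.

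**Figure D2:**
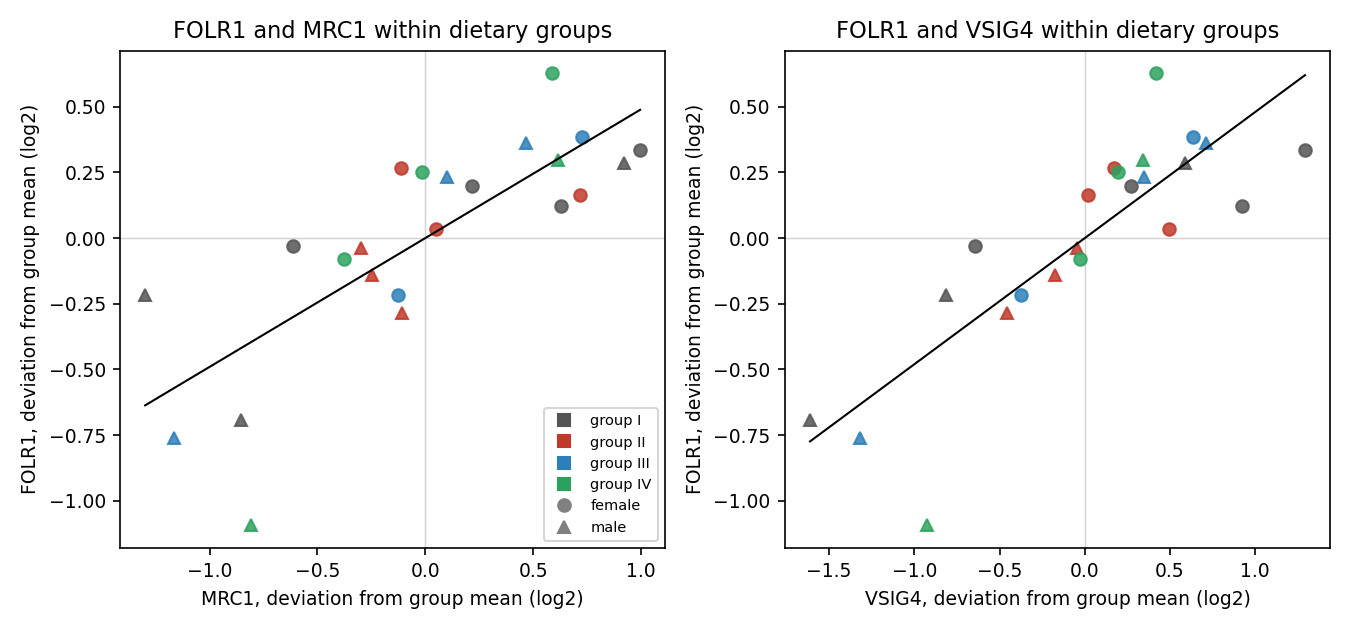
Deviation of FOLR1 from the mean of the pig's dietary group (log2) against that of MRC1 (left) and VSIG4 (right) for 23 pigs, coloured by group, with circles for females, triangles for males and the fitted within-group slope as a line. The points rise along the line, with 21 and 23 of 23 pigs on the same side of both group means, and pigs 8, 48 and 54 lie lowest.

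The relation was found in group I and in groups III and IV, and was not shown in group II alone. In group I, r was 0.810 with MRC1 (n = 7, exact permutation p = 0.0149, adjusted p = 0.0198) and 0.917 with VSIG4 (n = 7, exact permutation p = 0.00258, adjusted p = 0.00413). In groups III and IV, each centred on its own mean and pooled because 5 pigs are too few alone, r was 0.906 with MRC1 (n = 10, permutation p = 0.000208, adjusted p = 0.000417) and 0.929 with VSIG4 (n = 10, permutation p = 0.000139, adjusted p = 0.00037). Without pigs 48 and 54 these values were 0.854 and 0.892. In group II, r was 0.443 with MRC1 (n = 6, exact permutation p = 0.417, adjusted p = 0.417) and 0.690 with VSIG4 (n = 6, exact permutation p = 0.122, adjusted p = 0.14). Leaving out pig 19 gave r = 0.223 and 0.740 in group II. The difference in r between groups was not tested. The sign of Spearman's rho was that of r in each set of pigs, with adjusted p-values (permutation) of 0.0108 and 0.0164 in group I, 0.00208 for both genes in groups III and IV, and 0.564 and 0.0667 for group II.

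Within groups the slope of FOLR1 on MRC1 was 0.49 (SE 0.09) and on VSIG4 0.48 (SE 0.07), in log2 of FOLR1 per doubling of the other gene. Counting error in the other gene lowers such a slope and was not corrected for, and VSIG4 had only 3 to 79 reads per pig. A slope lowered in this way also lowers the product given below and raises the remainder. Between the means of groups II and I, on the log2(CPM + 0.5) scale, FOLR1 differed by 0.94, MRC1 by 1.36 and VSIG4 by 1.84. The within-group slope times these differences gives 0.67 for MRC1 and 0.88 for VSIG4. The remainder, the FOLR1 difference minus this product, was 0.28 with MRC1 and 0.06 with VSIG4. For group III the FOLR1 difference from group I was 0.47, with remainders of 0.14 and 0.03. For group IV it was 0.27, and the remainders were negative at -0.09 and -0.30. These are descriptions with no test, and no error was computed for the remainders. FOLR1, MRC1 and VSIG4 were chosen on the groups compared here. The remainders therefore do not measure the part of MRC1 or VSIG4 in the diet differences of FOLR1, which was not tested.

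No relation of FOLR1 to a property of the libraries passed the test. Across the 23 pigs, on deviations from group means, FOLR1 had r = -0.146 (rho = 0.0227) with the share of reads outside genes, 0.279 (rho = 0.344) with log2 of the reads on genes and -0.350 (rho = -0.375) with the share of the most counted gene. The permutation p-values of r were 0.533, 0.169 and 0.139, and those of rho 0.922, 0.114 and 0.102. Among 9 such relations of the 3 genes, the lowest adjusted p was 0.354. Without the 2 pigs farthest out, the values of r for FOLR1 were 0.176, 0.195 and -0.245. With the share of reads outside genes removed as well, the correlation of FOLR1 was 0.801 with MRC1 and 0.845 with VSIG4.

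Among 11038 genes ranked by within-group r with FOLR1, VSIG4 was the second and MRC1 the seventh. The 10 most similar genes were headed by ENSSSCG00000029889, for which no name was found, at r = 0.849. These r are a description over 23 pigs, because all genes of a pig share its library and depth. HTRA1, a secreted serine protease, had r = 0.820, and DNM1, a dynamin that cuts off endocytic vesicles, had 0.810. SLCO2B1, a transporter of organic anions, had 0.793, MMP2, a matrix metalloproteinase, 0.790, and SEMA3E, a semaphorin, 0.766. The other two of the 10 had no name. The 5 least similar genes had r from -0.794 to -0.751. Among them were CHD1, a chromatin remodeller, INTS6, a subunit of the Integrator complex, ELL2, a transcription elongation factor, and 1 gene with no name.

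All 13 of the list's genes that passed the filter over 23 pigs had a positive r with FOLR1, with a median of 0.589, against a median of 0.0279 and 53.4% positive over all 11038 genes. The complement genes C1QC and C1QA had r = 0.728 and 0.711, CD14, a receptor for bacterial lipopolysaccharide, 0.623, LYVE1 0.595, and STAB1, a scavenger receptor, 0.589. FOLR2 had 0.548, F13A1, a coagulation factor subunit, 0.543, SIGLEC1, a receptor for sialic acids, 0.504 and CD209 0.484. MS4A7 and CD68 lay near 0, at 0.0563 and 0.0408. The list holds MRC1, VSIG4 and FOLR2 themselves.

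Genes of fibroblasts and their progenitors were also positive in 7 of 7 cases, with a median r of 0.347, led by DCN (decorin) at 0.713 and COL1A2 (a collagen I chain) at 0.660. The 4 adipocyte genes were negative, with a median of -0.251, and PPARG, the master regulator of fat cell differentiation, was lowest at -0.618. The 4 endothelial genes were negative too, with a median of -0.222. Of the remaining lists, pericyte and smooth muscle genes had a median of -0.0729 (4 genes), mast cell genes 0.157 (2 genes), skeletal muscle genes -0.254 (2 genes), and the single T and B cell gene that passed, CD2, -0.255. No epithelial and no neutrophil or dendritic cell gene passed the filter.

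**Figure D3:**
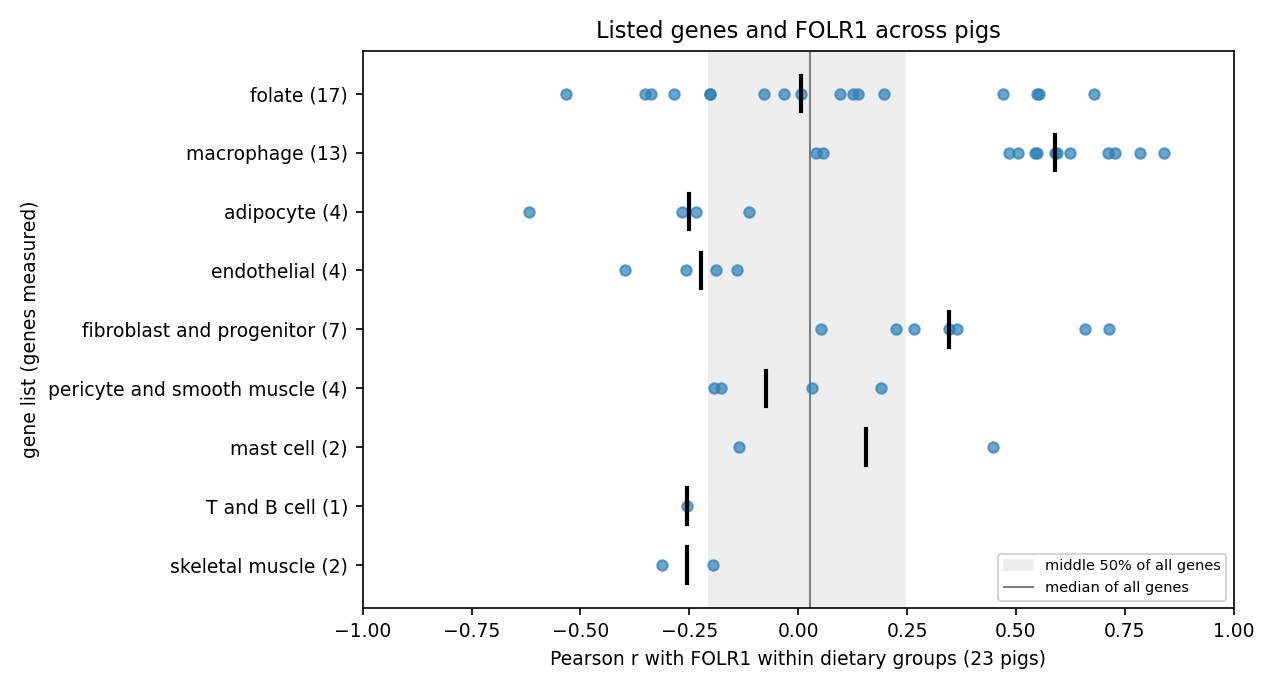
Pearson r of each listed gene with FOLR1 on deviations from dietary group means over 23 pigs, 1 row per list with its number of measured genes in brackets, a black bar at the median of the list, a grey band for the middle 50% of all genes and a grey line at their median. The 13 macrophage genes lie above 0 with a median of 0.589, while the folate genes spread on both sides of 0.

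FOLR2, the other folate receptor measured, had overlapping levels in all 4 diet groups. Group I averaged 16.4 ± 3.19 CPM of FOLR2 (SD, n = 7), group II 15.3 ± 4.28 (SD, n = 6), group III 15.5 ± 2.06 (SD, n = 5) and group IV 13.1 ± 3.95 (SD, n = 5). Its log2 fold change for group II against group I was -0.10 (SE 0.18; adjusted p = 0.846, edgeR). For group IV against group III it was -0.23 (SE 0.20; adjusted p = 0.997, edgeR), with p = 0.19 in the exact two-sided permutation test. The difference between the changes of FOLR1 and FOLR2 was not tested.

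The enzymes and carriers of folate metabolism pass folate-bound carbon units to purine, thymidylate and methionine synthesis. Of 34 listed genes 22 matched an identifier, and the carrier SLC19A1, GGH, SHMT1, SHMT2 and FOLR3 were among those not analysed here. Between group I and each other diet group 15 of the 22 passed the filter, and edgeR called 0 of them. Over all genes edgeR called 3 of 10323, 0 of 10423 and 0 of 10388 for groups II, III and IV. DESeq2 gave an adjusted p for 11, 18 and 11 of the 22 and called 0. At an unadjusted p under 0.05, 1 was lower in group II, 1 was higher and 1 lower in group III, and 2 were lower in group IV. Over all genes tested, 13%, 7.95% and 14.2% had an unadjusted p under that limit. The median log2 fold change of the 15 was -0.09, -0.06 and -0.03 in these comparisons. Of group IV against group III, 0 of 15 were called and 1 had an unadjusted p under 0.05, against 4.11% of all genes tested.

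GART, an enzyme of purine synthesis that uses formyl folate, was the lower gene of group II, with a log2 fold change of -0.40 (SE 0.13; adjusted p = 0.251, edgeR). It was at -0.44 (SE 0.14; adjusted p = 0.204, edgeR) in group IV against group I, and passed only without pig 53 among the alternatives run, at -0.60 (SE 0.13; adjusted p = 0.0403, edgeR). TCN2, a carrier of vitamin B12, was at -0.77 (SE 0.32; adjusted p = 0.303, edgeR) in group IV against group I. Against group III it was at -0.81 (SE 0.38; adjusted p = 0.997, edgeR). In group III against group I, ATIC, another purine enzyme, was at 0.39 (SE 0.17; adjusted p = 0.619, edgeR). MTR, methionine synthase, was at -0.37 there (SE 0.16; adjusted p = 0.606, edgeR). In group II against group I, MTHFD1, a folate enzyme of the cytoplasm, was at 0.01 (SE 0.15). MTHFD2, a mitochondrial folate enzyme, was at -0.39 (SE 0.34), and FPGS, which adds the glutamates that keep folate in the cell, was at -0.09 (SE 0.19).

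Across pigs within groups the folate list did not lean to either side, with 9 of 17 genes positive and a median r with FOLR1 of 0.00654. TCN2 had an r of 0.552, FOLR2 of 0.548 and MTHFD2 of 0.469. MTR had the lowest at -0.534. Between the sexes 0 of 17 folate genes were called, against 0.819% of all genes tested with edgeR. MTRR, which reactivates methionine synthase, was at -0.21 (SE 0.08; adjusted p = 0.188, edgeR) and ALDH1L2, a mitochondrial formyl folate dehydrogenase, at 0.25 (SE 0.11; adjusted p = 0.225, edgeR).

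**Figure D4:**
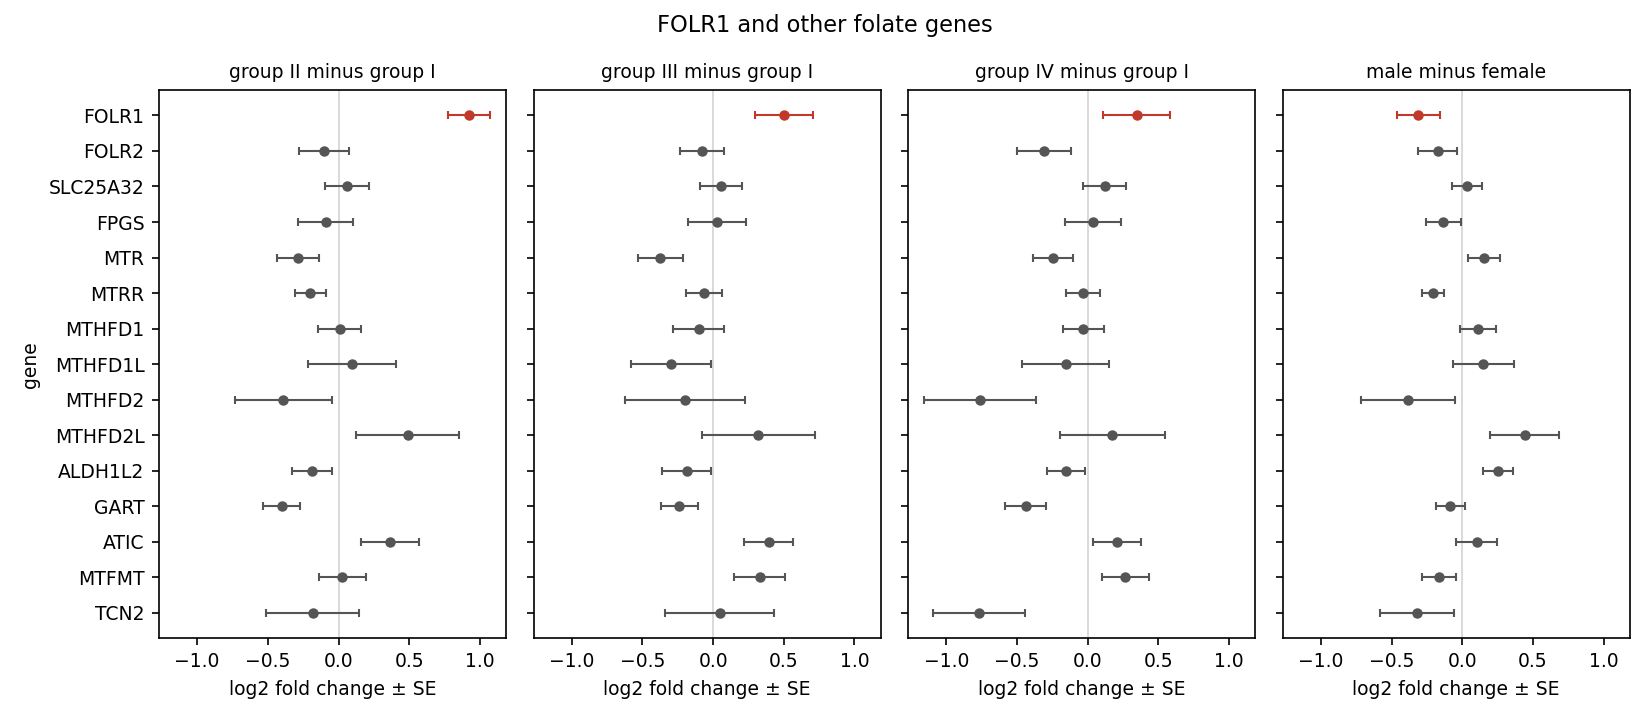
Fitted log2 fold change ± SE (edgeR) of FOLR1 (red) and 14 of the 15 other folate genes tested (grey) for groups II, III and IV against group I and for males against females. FOLR1 lies farthest to the right in the first comparison, at 0.92, and the other genes drawn lie on both sides of 0. The remaining gene is not shown here.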

How the data were processed

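Backfat RNA of 23 pigs was sequenced by the authors from ribosomal RNA depleted, stranded total RNA libraries, mapped with TopHat and assigned to Ensembl genes with HTSeq. The deposited files hold these raw counts, before any normalization. How degradation of the RNA affected single genes was not analysed here. Groups and sex were taken from the sample labels. Rows for reads outside genes were left out of library sizes and tests. They made up 51.1% to 71.3% of the reads on genes, outside genes or ambiguous between genes. Reads that map to several places or not at all are not part of this share.

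Counts were analysed with edgeR 4.0.16 (TMM, filterByExpr, glmQLFit and glmQLFTest) in R 4.3.3 on the groups compared, with Benjamini-Hochberg adjustment over all genes tested. Calls needed an adjusted p under 0.05 and a fold change above 1.3. SE is that of the log2 fold change. Permutation tests and correlations used log2(CPM + 0.5). The permutation tests of diet groups and of sex were run in R. Correlations and their permutation tests used scipy 1.17.1 and numpy 2.4.6. Alternatives were DESeq2 1.42.0, limma 3.58.1 (voom with sample weights), RLE normalization, no filter, sex or the share of reads outside genes as covariate, all pigs in 1 fit, a pseudocount of 2 and leaving out each pig. Scripts were tested on simulated data.

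FOLR1, the gene lists and the tests were chosen with earlier results of these data known. Named genes were FOLR1, MRC1, VSIG4, the main folate genes that passed the filter and others with an unadjusted p under 0.05, the macrophage genes, and the 10 most and 5 least similar genes by r. A few genes that this rule names are not reported here. The relations to library properties the values without pig 19 and the coefficients of variation without single pigs were added after seeing the data. A symbol table named 11804 identifiers of the files and the study's list 78 more. No 2 pigs of a group agreed within sampling noise (smallest chi-square per degree of freedom 7.02 over 56 pairs), and each was counted as 1 sample. Each library is a separate pig, so p-values measure the spread between animals.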

Additional observations from a re-analysis of the deposited data

Results flagged for a closer look

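MRC1 in pig 19 of group II was at 194 CPM, while the other 5 pigs of that group lay between 95.4 and 122 CPM, so its gap to the nearest pig was 0.732 of the range of the group, above Dixon's critical value of 0.625. FOLR1, VSIG4 and FOLR2 had no such pig in any of the 4 groups. Chance flags about 1 in 20 groups, and 16 were examined. Over 23 pigs the within-group correlation of FOLR1 with MRC1 was 0.791 without pig 19.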

How the results depend on the processing

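The log2 fold change of FOLR1 for group II against group I lay between 0.85 and 0.95 over the other settings and between 0.83 and 0.98 when pigs were left out in turn. For group III against group I the ranges were 0.49 to 0.63 and 0.41 to 0.65, and for group IV against group I 0.25 to 0.77 and 0.17 to 0.54. For group IV against group III the sign changed, at 0.0704 with the share of reads outside genes as a covariate and over a range of -0.33 to 0.0292 with pigs left out (0.0292 without pig 54), and the cause was not tested. For males against females the ranges were -0.35 to -0.30 and -0.39 to -0.20, with adjusted p-values from 0.201 to 0.457 (edgeR, DESeq2 and limma). The correlation of FOLR1 with MRC1 lay between 0.746 and 0.801 over the other settings and 0.735 to 0.826 with pigs left out, and that with VSIG4 between 0.801 and 0.853 and 0.80 to 0.876. The count of folate genes called in group IV against group I ranged from 0 to 1 with pigs left out (1 without pig 53), and in the other diet comparisons it was 0 under each alternative run. No paired analysis was possible because the labels give the pigs no numbers shared between groups. With a few reads of VSIG4 in some pigs (3 to 79 reads), counting error alone limits its level there. Over all genes DESeq2 called 96 between groups II and I, 13 between III and I, 154 between IV and I and 258 between the sexes, where edgeR called 3, 0, 0 and 92 and limma-voom 4, 0, 0 and 76.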
